A study of Mus musculus with 6 samples.

Results

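Chemokine ligands and chemokine receptors were compared between old and young mouse hearts. The members are defined by their names. They are the rows of the count table named Ccl, Cxcl, Ccr or Cxcr with a number and at most 1 further letter, together with Cx3cl1 and Cx3cr1. This gave 44 ligand rows and 17 receptor rows, 61 of the 44200 gene models in the table. The ligand rows carried 38 distinct names, because copies of Ccl19, Ccl21 and Ccl27 have rows of their own, and 7 of the 61 rows lie on unplaced scaffolds of the assembly. The old group was made of hearts from male C57BL/6 mice aged 22 months (n = 3) and the young group of hearts from males of the same strain aged 2 months (n = 3). All mice were kept on normal chow with no treatment named, and the study describes the 3 samples of each age as independent biological replicates. Total RNA of the heart was sequenced, so every cell type of the organ contributes reads. The extraction text of the labels names NRVMs, a preparation of heart muscle cells, in place of heart tissue. Genes of heart muscle cells would be abundant under either reading, so the following levels do not settle this conflict. Genes of heart muscle cells were abundant in every library: the summed level of 6 such genes was 30310 to 34140 CPM (counts of a gene scaled to equal library size) in old hearts and 42880 to 48100 CPM in young hearts.

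Chemokines are small secreted proteins that steer the migration of white blood cells along a gradient. Families are named after the spacing of the first cysteines of the mature protein, which touch each other in C-C ligands (Ccl), have 1 residue between them in C-X-C ligands (Cxcl) and 3 in Cx3cl1. Their receptors cross the membrane several times and signal through inhibitory G proteins. In the heart, stromal and endothelial cells are known sources of Cxcl12, and recruited monocytes and macrophages are known sources and targets of many C-C ligands. The cysteine codons set the family apart in the coding sequences of the ligands on which the results turn, shown here from the GENCODE M21 transcripts with the codons of the first cysteine pair in capitals and flanks of 15 bases:
Ccl8: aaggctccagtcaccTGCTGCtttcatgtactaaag
Ccl7: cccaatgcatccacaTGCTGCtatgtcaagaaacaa
Ccl12: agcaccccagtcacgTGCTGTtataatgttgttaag
Ccl2: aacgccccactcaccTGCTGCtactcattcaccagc
Ccl11: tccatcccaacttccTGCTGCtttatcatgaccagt
Ccl6: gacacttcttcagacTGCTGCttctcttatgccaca
Ccl9: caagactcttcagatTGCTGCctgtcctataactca
Cxcl13: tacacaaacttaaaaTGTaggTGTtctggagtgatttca
Cxcl14: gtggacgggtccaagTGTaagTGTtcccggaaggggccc
Cxcl12: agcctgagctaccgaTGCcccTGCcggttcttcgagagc
Cx3cl1: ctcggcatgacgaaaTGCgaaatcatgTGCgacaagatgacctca

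The libraries held 13673856 to 15583364 counted reads. On the first principal component of all genes, which held 56% of the variance, old 1 lay at 15.0, nearer to the young libraries (-38.3 to -33.4) than old 2 and old 3 did (45.9 and 48.0). Levels below are CPM scaled by edgeR's TMM factors, given for libraries 1, 2 and 3 of each age in that order. Log2 fold changes are old over young with an approximate standard error (SE), and adjusted p values come from edgeR's quasi-likelihood test with Benjamini-Hochberg adjustment over all genes tested. A gene was called at an adjusted p under 0.05. Every old library lay above every young library for 18.8% of the genes tested and below for 18.4%.

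Most chemokine ligands with enough reads at both ages were higher in old hearts, and Cxcl12, which took the most reads in every library, was lower. In bulk tissue a difference in the number of cells of a type and a difference in RNA per cell cannot be told apart. Of the 44 ligand rows, 20 passed edgeR's filter on low counts. Of the 12 that reached its minimum of about 10 reads in all 6 libraries, 8 were called higher (Ccl2, Ccl5, Ccl6, Ccl9, Cxcl9, Cxcl14, Cxcl16 and Cx3cl1), 1 was called lower (Cxcl12) and 3 did not pass (Ccl21a, Ccl24 and Ccl27a), with a median log2 fold change of 0.96, against 0.02 over all genes tested. Of all 14413 genes tested, 15.1% were called, 8.72% as higher and 6.36% as lower in old hearts. The other 8 ligands reached the minimum through the old libraries, so the filter favoured a higher level in old hearts. Of these, 5 were called (Ccl7, Ccl8, Ccl11, Ccl12 and Cxcl13) and 3 were not (Ccl25, Cxcl1 and Cxcl10). Without old 1, 16 ligands were called, 15 higher and 1 lower. Leaving out 1 of the other libraries left 10 (old 2), 10 (old 3), 7 (young 1), 6 (young 2) or 8 (young 3) ligand calls, and over all genes 1541, 919, 539, 540 and 619 calls, against 2174 with every library and 5570 without old 1.

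**Figure D1:**
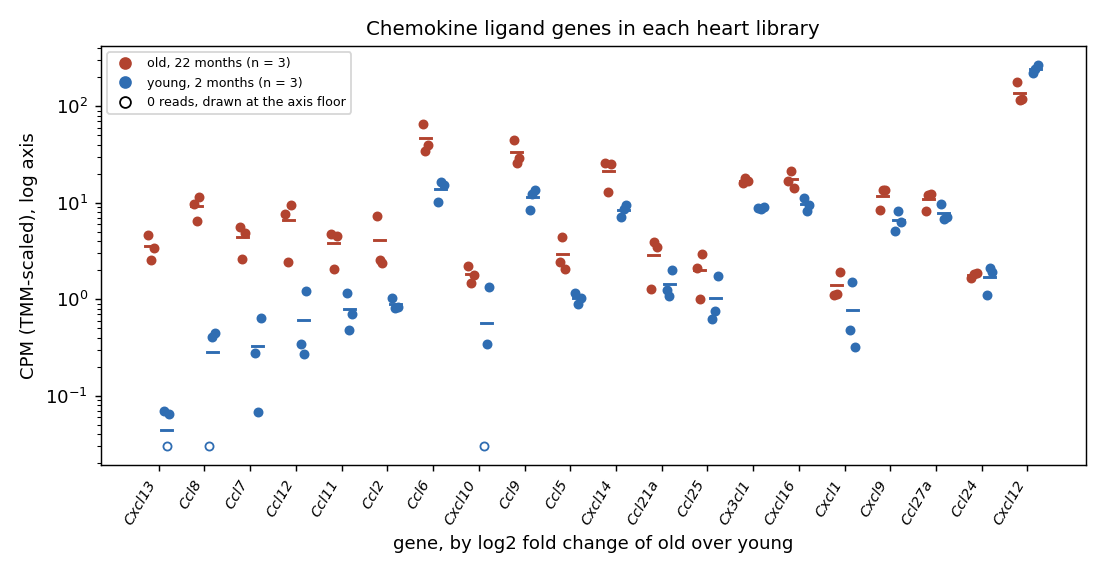
Level of each chemokine ligand gene tested, in CPM on a log axis, with 1 point per library, old on the left and young on the right of each gene, and a bar at the mean of 3. Genes run from the largest to the smallest log2 fold change, and open circles mark libraries without a read. Cxcl13, Ccl8, Ccl7, Ccl12, Ccl11, Ccl2 and Ccl5 have all 3 old points above 2 CPM and all 3 young points under 1.3 CPM. Cxcl12 alone has all old points under all young points.

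Ccl2, Ccl7, Ccl8 and Ccl12, grouped here as attractants of monocytes, were called higher in old hearts, beside 8.72% of all genes tested. The group does not hold every ligand that can attract monocytes. Ccl2 passed the filter at both ages, while Ccl7, Ccl8 and Ccl12 passed it through the old libraries, where they are high. Ccl2, Ccl7 and Ccl12 are ligands of Ccr2, the receptor by which monocytes leave the blood, and mouse Ccl8 is best known as a ligand of Ccr8. Ccl8 (ENSMUSG00000009185, chromosome 11, 82115185 to 82116799, GRCm38) was at 9.81, 6.45 and 11.6 CPM in old hearts, against 0, 0.407 and 0.451 CPM in young hearts. These values rest on 407 reads in the old and 13 in the young libraries, and no young library came near an old one. This was a log2 fold change of 4.96 ± 0.53 (SE; edgeR, adjusted p = 0.00142). Ccl7 was at 5.64, 2.62 and 4.82 CPM in old hearts and 0.275, 0.0678 and 0.644 CPM in young hearts. All old libraries were above all young ones, with 194 reads against 15. Its log2 fold change was 3.68 ± 0.56 (edgeR, adjusted p = 0.00478), and 4.59 without young 3. Ccl12, a further ligand of Ccr2, was at 7.72, 2.41 and 9.57 CPM in old hearts and 0.344, 0.271 and 1.22 CPM in young hearts. Old 2 was the lowest of the old libraries for Ccl12 and young 3 the highest of the young ones, and the groups did not overlap. Ccl12 had a log2 fold change of 3.39 ± 0.63 (edgeR, adjusted p = 0.00955). Without young 1 or young 2 the adjusted p of Ccl12 was 0.0542 and 0.05001 and the call ended, and without young 3 the log2 fold change was 4.36. Ccl2 was at 7.29, 2.55 and 2.38 CPM in old hearts, against 1.03, 0.814 and 0.837 CPM in young hearts. Old 1 stood well above the other old libraries for Ccl2. Ccl2 had a log2 fold change of 2.19 ± 0.49 (edgeR, adjusted p = 0.0188), and 1.45 without old 1. The Ccl2 call ended without young 1, young 2 or young 3 (edgeR, adjusted p = 0.0713, 0.0809 and 0.0781).

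Among eosinophil attractants, ligands of Ccr3, Ccl11 was higher and Ccl24 was not called. Ccl11 (eotaxin) was at 4.78, 2.06 and 4.53 CPM in old hearts, against 1.17, 0.475 and 0.708 CPM in young hearts. The lowest old library was above the highest young one. Its log2 fold change was 2.27 ± 0.45 (edgeR, adjusted p = 0.0120), and the call ended without old 3, young 2 or young 3 (adjusted p = 0.0525, 0.0618 and 0.0605). Ccl24, which binds the same receptor, was at 1.66, 1.84 and 1.86 CPM in old hearts and 1.10, 2.10 and 1.93 CPM in young hearts, with overlapping groups and a log2 fold change of 0.06 ± 0.34 (edgeR, adjusted p = 0.925). Ccl26 had no read in any library.

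Ccl6 and Ccl9, rodent ligands of Ccr1 made by myeloid cells, took the most reads of the C-C ligands over the 3 libraries of each age, although in young 1 Ccl27a (9.69 CPM) was above Ccl9 (8.38 CPM). Ccl6 was at 65.3, 34.7 and 39.3 CPM in old hearts, against 10.2, 16.4 and 15.2 CPM in young hearts. Ccl9 was at 44.6, 25.9 and 29.0 CPM in old hearts, against 8.38, 12.4 and 13.5 CPM in young hearts. For both genes old 1 was the highest library and young 1 the lowest, with no overlap between the ages. Ccl6 had a log2 fold change of 1.73 ± 0.26 (edgeR, adjusted p = 0.00467). For Ccl9 this was 1.54 ± 0.24 (edgeR, adjusted p = 0.00555). Ccl5, a ligand of Ccr1 typical of T cells, was at 2.45, 4.397 and 2.08 CPM in old hearts and 1.17, 0.882 and 1.03 CPM in young hearts. Old 2 was the highest library for Ccl5, and all old libraries were above all young ones. Its log2 fold change was 1.53 ± 0.38 (edgeR, adjusted p = 0.0268). The Ccl5 call ended without old 2, young 1, young 2 or young 3 (edgeR, adjusted p = 0.0734, 0.0880, 0.112 and 0.103). Ccl3 and Ccl4, inflammatory ligands, stayed under the filter, with 22, 3 and 8 reads in old and 11, 1 and 3 reads in young libraries for Ccl3, and 17 reads over the old and 6 over the young libraries for Ccl4.

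**Figure D2:**
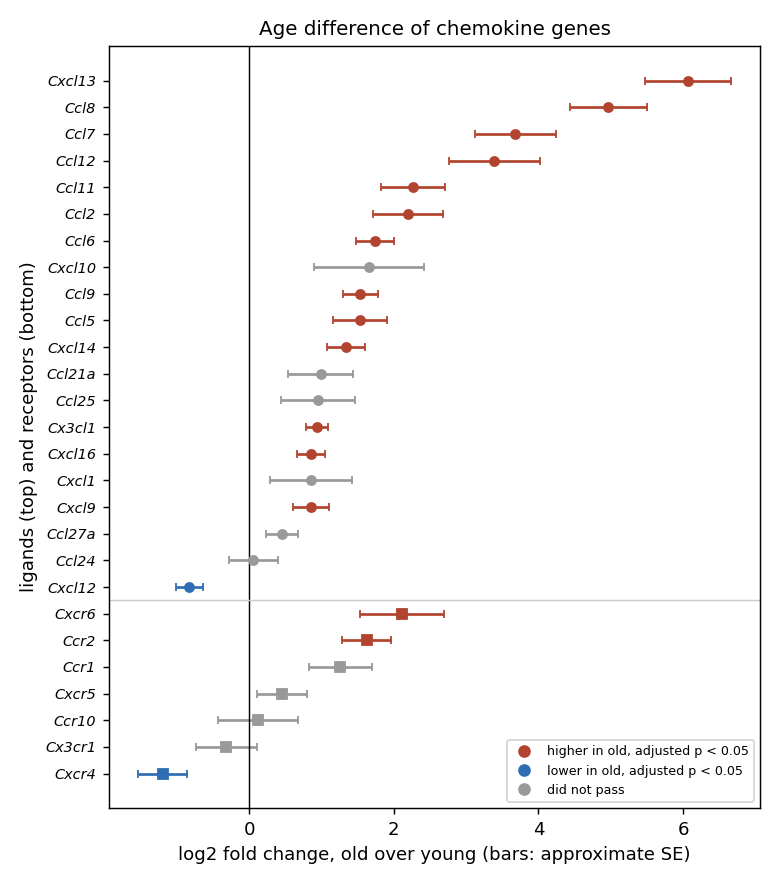
Log2 fold change of old over young for chemokine genes, ligands as circles above the line and receptors as squares below it, with bars of 1 approximate SE and colour for the call. The ligands run from -0.83 (Cxcl12) to 6.07 (Cxcl13, a fitted value that rests on 2 reads in young hearts), and the receptors from -1.20 (Cxcr4) to 2.12 (Cxcr6).

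Of the tested Cxcl ligands and Cx3cl1, 5 were called higher in old hearts, Cxcl12 was called lower, and Cxcl1 and Cxcl10 were not called. Over all genes tested 8.72% were called higher and 6.36% lower. Cxcl13 reached the filter's minimum through the old libraries, so the filter favoured a higher level in old hearts. Cxcl13, which draws B cells into follicles through Cxcr5, was at 4.66, 2.55 and 3.41 CPM in old hearts, against 0.0687, 0 and 0.0644 CPM in young hearts. Old hearts gave 158 reads of Cxcl13 in all and young hearts 2. Per scaled library size that is a ratio of 80.7, with an exact interval at 95% of 22 to 672 that covers counting error only (edgeR, adjusted p = 0.00140). Cxcl14, a ligand made in many tissues, was at 25.6, 13.1 and 25.4 CPM in old hearts and 7.08, 8.68 and 9.53 CPM in young hearts. Old 2 was the lowest old library for Cxcl14 and was still above every young one. Its log2 fold change was 1.34 ± 0.26 (edgeR, adjusted p = 0.0117), and the call ended without old 3, young 1 or young 2 (adjusted p = 0.0535, 0.0641 and 0.0560). Cxcl16 and Cx3cl1 are made as membrane proteins and can be shed as soluble ligands. Cx3cl1 was at 15.9, 18.2 and 16.6 CPM in old hearts, against 8.80, 8.62 and 9.08 CPM in young hearts. The 3 libraries of each age lay close together for Cx3cl1, far apart from those of the other age. Its log2 fold change was 0.94 ± 0.15 (edgeR, adjusted p = 0.00555). Cxcl16 was at 16.7, 21.5 and 14.1 CPM in old hearts and 11.1, 8.28 and 9.53 CPM in young hearts, with no overlap. Its log2 fold change was 0.85 ± 0.20 (edgeR, adjusted p = 0.0224), and the call ended without old 2, young 1, young 2 or young 3 (adjusted p = 0.0545, 0.0595, 0.106 and 0.0963). Exons of Cxcl16 share 18.3% of their length with Zmynd15 on the opposite strand, and without a stated strand setting the reads of the 2 genes cannot be told apart there. Smaller overlaps of this kind cover 5.91% of Cxcl10 (with Art3), 3.3% of Cxcr5 (with Bcl9l), 2.74% of Ccl25 (with Elavl1) and 1.73% of Cx3cr1 (with Gm33858).

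The interferon-induced ligands of Cxcr3 gave 1 call in 2 tested genes. Cxcl9 was at 8.46, 13.5 and 13.6 CPM in old hearts and 5.09, 8.21 and 6.37 CPM in young hearts. Old 1 lay just above the highest young library, young 2. Cxcl9 had a log2 fold change of 0.85 ± 0.25 (edgeR, adjusted p = 0.0484). This call ended without old 2, old 3, young 1, young 2 or young 3 (edgeR, adjusted p = 0.118, 0.159, 0.172, 0.0763 and 0.155), with limma-voom (adjusted p = 0.0618) and with limma-trend on the FPKM table (adjusted p = 0.0669 and 0.0660). Cxcl10 was at 2.21, 1.49 and 1.78 CPM in old hearts and 0, 0.339 and 1.35 CPM in young hearts. Its groups did not overlap, but young libraries differed widely, and the log2 fold change of 1.66 ± 0.76 was not called (edgeR, adjusted p = 0.163). Cxcl11 had 2 reads in old libraries and none in young ones.

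Cxcl12, which keeps leukocytes and progenitors in place through Cxcr4, was the one ligand called lower in old hearts. It was at 179.4, 117.5 and 117.7 CPM in old hearts, against 223.2, 245.6 and 267.8 CPM in young hearts (mean 138.2 ± 35.7 and 245.5 ± 22.3 CPM, SD, n = 3 each). All old libraries were under all young ones, and old 1 was the nearest to them. The log2 fold change was -0.83 ± 0.19 (edgeR, adjusted p = 0.0195), and -1.06 without old 1. The call ended without old 2, old 3, young 1, young 2 or young 3 (edgeR, adjusted p = 0.0512, 0.0762, 0.0615, 0.0789 and 0.0823), while the direction held in each.

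The make-up of the ligand RNA differed between the ages although its total did not separate them. Summed over the 44 ligand rows, the level was 419.6, 290.6 and 320.7 CPM in old hearts and 292.7, 325.3 and 352 CPM in young hearts. Cxcl12 took 42.75, 40.44 and 36.7% of that sum in old hearts, against 76.26, 75.52 and 76.08% in young hearts. Without Cxcl12 the sum was 240.2, 173.1 and 203 CPM in old hearts and 69.48, 79.64 and 84.2 CPM in young hearts, so the remaining ligands together were higher in each old library. Ccl6 and Ccl9 together held 109.9, 60.57 and 68.28 CPM in old hearts, against 18.62, 28.83 and 28.71 CPM in young hearts. Ccl2, Ccl7, Ccl8, Ccl11 and Ccl12 together held 35.24, 16.1 and 32.88 CPM in old hearts, against 2.818, 2.035 and 3.862 CPM in young hearts. These sums count reads, which also rise with the length of a gene. Per kilobase of exon, the highest mean levels in old hearts were those of Ccl6 (25.9 CPM per kb), Ccl8 (18.2), Cxcl12 (16.9) and Ccl12 (12.2). The same genes were at 7.77, 0.559, 30.03 and 1.14 CPM per kb in young hearts. Of the 20 tested ligands Cxcl12 was thus at rank 3 per kilobase in old hearts and at rank 1 in young hearts, while Ccl8 was at rank 2 in old and at rank 15 in young hearts.

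**Figure D3:**
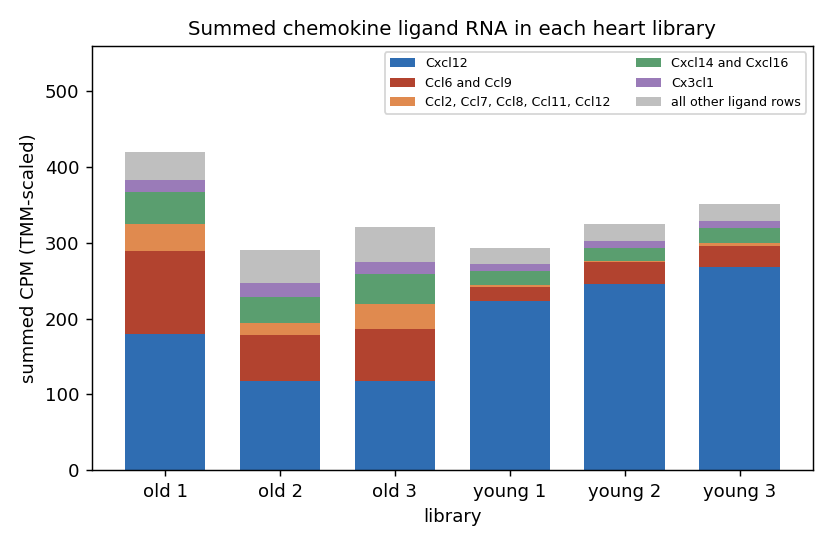
Summed level of all 44 chemokine ligand rows in each library, in CPM, stacked by ligand group, with the old libraries left of the young ones. The block of Cxcl12 reaches 117.5 to 179.4 CPM in the old libraries and 223.2 to 267.8 CPM in the young ones, and the block of Ccl6 and Ccl9 reaches 60.57 to 109.9 CPM in old and 18.62 to 28.83 CPM in young libraries.

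Of the ligands for homing to lymphoid and epithelial tissue, Ccl21a, Ccl27a and Ccl25 were tested and not called with every library in the fit. Ccl21a, a ligand of Ccr7 known from lymphatic vessels, was tested through its row on scaffold JH584294.1, at 1.29, 3.90 and 3.49 CPM in old hearts and 1.24, 1.09 and 2.00 CPM in young hearts. Old 1 lay among the young libraries, and the log2 fold change of 0.99 ± 0.45 was not called (edgeR, adjusted p = 0.160), but it was without old 1 (1.35, adjusted p = 0.0117). The 6 Ccl21 rows, whose reads cannot be assigned to 1 copy with certainty, held 24, 58 and 48 reads in old libraries and 18, 19 and 39 reads in young libraries. Ccl27a, a ligand of Ccr10, was at 8.27, 11.9 and 12.4 CPM in old hearts and 9.69, 6.85 and 7.15 CPM in young hearts. The groups overlapped through old 1 and young 1, and the log2 fold change was 0.46 ± 0.22 (edgeR, adjusted p = 0.184), against 0.62 without old 1 (adjusted p = 0.0265). The transcripts of Ccl27a and Ccl27b share an identical run of 198 bases, and the 4 Ccl27 rows held 136, 168 and 168 reads in old and 141, 102 and 111 reads in young libraries. Ccl25, the Ccr9 ligand of thymus and gut, was at 2.08, 0.993 and 2.97 CPM in old hearts and 0.619, 0.746 and 1.74 CPM in young hearts (log2 fold change 0.95 ± 0.51; edgeR, adjusted p = 0.230). The groups of Ccl25 overlapped.

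Neutrophil attractants, the ligands of Cxcr2, were near the limit of detection. Cxcl1 was at 1.10, 1.14 and 1.93 CPM in old hearts and 0.481, 1.49 and 0.322 CPM in young hearts, with overlapping groups and a log2 fold change of 0.85 ± 0.56 (edgeR, adjusted p = 0.323). Cxcl5 had 11 reads in old and 11 in young libraries, Cxcl2 had 4 and 4, and Cxcl3 and Cxcl15 had none. The ligands of Ccr4 were Ccl17, with 18, 4 and 5 reads in old libraries and 0, 1 and 2 in young libraries, and Ccl22, with 12 reads in old and 6 in young libraries. The 27 reads of Ccl17 in old against 3 in young libraries give a ratio of 9.19 (exact interval at 95% 2.83 to 47.3), and in a fit with no filter Ccl17 was called higher (edgeR, adjusted p = 0.0411). In all, 24 ligand rows were not tested. Of these, 8 had no read, 9 had 1 to 10 reads over the 6 libraries together and 7 had more, namely Ccl3, Ccl4, Ccl17, Ccl22 and Cxcl5, Ccl28 (11 reads in old and 11 in young libraries) and a copy of Ccl21b (5 and 6).

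Many genes of the family lie in clusters, whether called or not. Of the 14 ligands called, 10 lie in the clusters described here, while Cxcl12 (chromosome 6), Cxcl13 (chromosome 5), Cxcl14 (chromosome 13) and Cxcl16 (chromosome 11) lie outside them. Of the 6 ligands tested and not called, Cxcl1 and Cxcl10 lie in these clusters, and Ccl21a, Ccl24, Ccl25 and Ccl27a do not. Whether calls were more common in the clusters was not tested. On chromosome 11, between 82035571 and 82305690, stand Ccl2, Ccl7, Ccl11, Ccl12, Ccl8 and Ccl1 in that order. The first 5 were higher in old hearts, and Ccl1 had no read in any library. Further along chromosome 11, between 83525778 and 83664683, Ccl5, Ccl9 and Ccl6 were higher, and their neighbours Ccl3 and Ccl4 were under the filter. Among the 5 called genes of the first cluster the longest identical run between any 2 transcripts, 1 per gene, was 23 bases (Ccl2 and Ccl7). Between Ccl6 and Ccl9 it was 25 bases. On chromosome 5 the cluster of Cxcl5, Cxcl3, Cxcl15, Cxcl1 and Cxcl2 (90759360 to 90905938) gave no call in 1 gene tested. Cxcl9, Cxcl10 and Cxcl11 (chromosome 5, 92321347 to 92365485) gave 1 call in 2 genes tested. Cx3cl1 lies on chromosome 8 between Ccl22 and Ccl17 (94745590 to 94812036), and was the one gene of these 3 with enough reads to test.

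Promoter sequence was taken from RefSeq (GRCm38.p6) for 39 of the chemokine genes, as the 250 bases before the transcription start. The windows are shown for the genes with the largest fold changes that the table holds, with the letters TATAAA in capitals, read on the strand of the gene:
Ccl8 (chr11:82114935-82115184, plus strand): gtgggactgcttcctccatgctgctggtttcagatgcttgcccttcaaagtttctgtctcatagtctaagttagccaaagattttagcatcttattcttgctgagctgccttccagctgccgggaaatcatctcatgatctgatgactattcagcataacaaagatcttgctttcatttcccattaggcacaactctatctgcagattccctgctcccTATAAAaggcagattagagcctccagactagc
Ccl12 (chr11:82101595-82101844, plus strand): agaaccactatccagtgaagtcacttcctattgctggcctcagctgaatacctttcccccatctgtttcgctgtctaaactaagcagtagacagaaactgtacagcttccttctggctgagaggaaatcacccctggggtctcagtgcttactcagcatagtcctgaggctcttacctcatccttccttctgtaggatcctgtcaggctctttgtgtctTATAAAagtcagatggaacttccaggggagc
Cxcl13 (chr5:95956689-95956938, plus strand): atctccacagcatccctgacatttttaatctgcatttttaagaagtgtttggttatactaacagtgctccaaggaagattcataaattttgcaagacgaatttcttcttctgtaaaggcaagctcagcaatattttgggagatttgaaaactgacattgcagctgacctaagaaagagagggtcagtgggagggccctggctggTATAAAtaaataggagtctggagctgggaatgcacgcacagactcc

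The run TATAAA, the letters of a TATA box core, begins at position -32 in Ccl8, -31 in Ccl12 and -46 in Cxcl13, counted from the start. It was found on the gene's strand in 10 of the 39 chemokine genes, and among the 10 genes called higher that have an entry in 6 (Ccl8, Ccl9, Ccl12, Cxcl9, Cxcl13 and Cx3cl1). In Ccl9, Cxcl9 and Cx3cl1 it begins at -92, -195 and -6, away from the usual place of a TATA box. Of all 32851 promoter windows of this length in the table, 7.59% hold it. The other motifs were searched on both strands. An NF-kappaB-type run, GGGA and TTCC with 2 free bases between them, was found in 6 of the 39 genes (Ccl1, Ccr3, Cxcl1, Cxcl2, Cxcl3 and Cxcl10) and in none of those 10, against 1.21% of all windows. The interferon response element, GAAA and again GAAA after 2 free bases, was found in Ccl19, Cxcl10 and Cxcl14, against 2.98% of all windows, and the interferon-gamma type run TTCNNNGAA in Ccl17, Ccr6 and Cxcl14, against 7.02%. The AP-1 run TGANTCA was found in Ccl9, Ccl27a, Ccl27b, Ccr3, Ccr4 and Cxcl10, against 6.75%. Some genes have several windows in the table, and a gene was counted once if any of its windows held the run. Of the genes called, Ccl2, Ccl5, Ccl7, Ccl11 and Cxcl16 have no entry, and Ccl24, Ccr10 and Cxcr5 are among the other genes without one.

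Receptor calls went in both directions. Ccr2 and Cxcr6 were higher in old hearts and Cxcr4 was lower. Over all genes tested 15.1% were called, 8.72% as higher and 6.36% as lower in old hearts. Of 17 receptor rows, 8 passed the filter. Of the 6 that reached its minimum in all 6 libraries, Ccr2 was called higher, Cxcr4 was called lower and 4 did not pass, among them Ccr1, Cxcr5 and Cx3cr1, with a median log2 fold change of 0.48. Cxcr6 reached the minimum through the old libraries, and Ccr10 through a mix of both ages. Without old 1, 4 receptors were called, 2 higher and 2 lower. Without old 3 the number was 1, and without young 1, young 2 or young 3 it was 0, with 3, 3 and 4 receptors at an unadjusted p under 0.05 in edgeR. Limma-trend on the FPKM table called 1 receptor with a pseudocount of 1 (Cxcr4, lower) and 0 with 0.1, so that both higher calls were lost, with 3 at an unadjusted p under 0.05 in each.

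Ccr2 marks blood-derived monocytes and the macrophages that come from them. It was at 10.7, 4.75 and 5.57 CPM in old hearts, against 2.54, 2.44 and 1.87 CPM in young hearts. Old 1 was the highest, and the lowest old library was still above each young one. Here the log2 fold change was 1.62 ± 0.34 (edgeR, adjusted p = 0.0148). The call ended without young 1, young 2 or young 3 (edgeR, adjusted p = 0.0592, 0.0628 and 0.0731) and with limma-trend on the FPKM table (adjusted p = 0.0667 and 0.0552). Part of the transcript sequence of Ccr2 is not unique to it, so that some of its reads could have been placed elsewhere.

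Ccr1, the receptor of Ccl6 and Ccl9, was at 3.98, 1.42 and 1.78 CPM in old hearts and 0.962, 0.9497 and 1.09 CPM in young hearts. The groups did not overlap and old 1 stood apart. The log2 fold change of 1.26 ± 0.44 was not called (edgeR, adjusted p = 0.0802), and was 0.67 without old 1 (adjusted p = 0.195). With no filter on low counts Ccr1 was called (edgeR, adjusted p = 0.0469). Cxcr6, the receptor of Cxcl16 on T cells and other lymphocytes, was at 1.66, 0.709 and 2.08 CPM in old hearts, against 0.550, 0.136 and 0.322 CPM in young hearts. These are 65 reads in old against 15 in young libraries, with no overlap. Cxcr6 had a log2 fold change of 2.12 ± 0.58 (edgeR, adjusted p = 0.0392). The Cxcr6 call ended without old 3, young 1, young 2 or young 3 (edgeR, adjusted p = 0.142, 0.0791, 0.148 and 0.138), with limma-voom (adjusted p = 0.0576) and with limma-trend on the FPKM table (adjusted p = 0.0805 and 0.0844).

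Cxcr4, the receptor of Cxcl12, was at 3.00, 3.55 and 1.56 CPM in old hearts, against 4.47, 8.07 and 6.18 CPM in young hearts. All old libraries were under all young ones. Cxcr4 had a log2 fold change of -1.20 ± 0.33 (edgeR, adjusted p = 0.0406). The Cxcr4 call ended without old 3, young 1, young 2 or young 3 (edgeR, adjusted p = 0.115, 0.0657, 0.165 and 0.109) and with limma-trend on log2(FPKM + 0.1) (adjusted p = 0.0502). Cx3cr1, the receptor of Cx3cl1 on monocytes and tissue macrophages, was at 5.33, 2.13 and 1.63 CPM in old hearts and 2.96, 4.95 and 3.54 CPM in young hearts. Old 1 was the highest of the 6 libraries while old 2 and old 3 were the lowest. The log2 fold change of Cx3cr1 was -0.32 ± 0.43 (edgeR, adjusted p = 0.643), but -1.02 without old 1, which was called lower (adjusted p = 0.0352).

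Cxcr5, the receptor of Cxcl13 on B cells, was at 1.78, 4.04 and 3.04 CPM in old hearts and 2.13, 2.44 and 1.87 CPM in young hearts. Old 1 was the lowest library, the groups overlapped, and the log2 fold change was 0.45 ± 0.34 (edgeR, adjusted p = 0.388). Ccr10 was at 0.858, 0.213 and 1.04 CPM in old hearts and 0.619, 0.746 and 0.579 CPM in young hearts, also with overlap (log2 fold change 0.12 ± 0.55; edgeR, adjusted p = 0.901). The remaining 9 receptors were not tested. Cxcr2, the receptor of the neutrophil attractants, had 9, 3 and 4 reads in old libraries and 0, 1 and 1 reads in young libraries, a ratio of 8.17 (exact interval at 95% 1.92 to 73.2), and was not called in a fit with no filter (edgeR, adjusted p = 0.124). Ccr7, the receptor of Ccl19 and Ccl21, had 16 reads in old and 13 in young libraries. Cxcr3 had 20 and 15. Ccr8, a receptor of mouse Ccl8, had none in old and 2 in young libraries. Ccr3, the receptor of Ccl11 and Ccl24, had 4 reads in old and 5 in young libraries. Ccr9 had 2 and 8, Ccr6 had none in old and 1 in young libraries, and Ccr4 and Cxcr1 had no read.

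**Figure D4:**
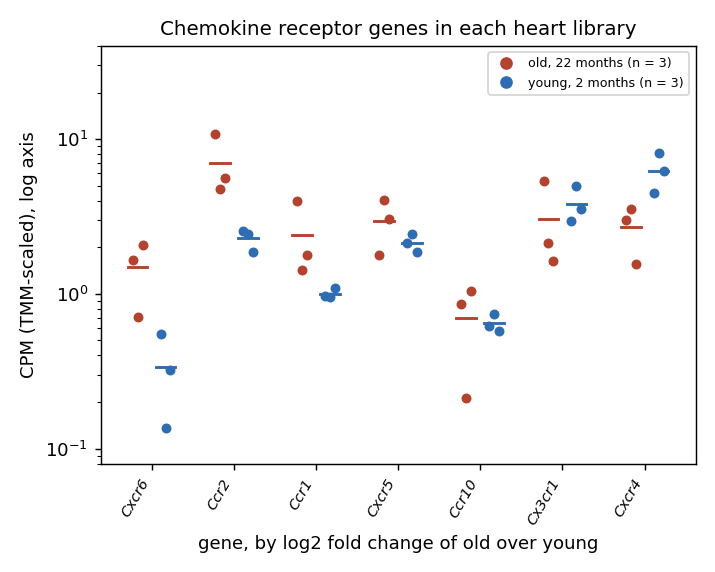
Level of chemokine receptor genes, in CPM on a log axis, with 1 point per library, old on the left and young on the right of each gene, and a bar at the mean of 3. Ccr1, Ccr2 and Cxcr6 have all old points above all young points, and Cxcr4 has them all below. For Ccr1, Ccr2 and Cx3cr1 the highest old point is old 1.

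Set side by side, ligands and their known receptors took several patterns. Both members were called higher in old hearts for Cxcl16 with Cxcr6, and for Ccl2, Ccl7 and Ccl12 with Ccr2. Both were called lower for Cxcl12 with Cxcr4. For Cxcl13, Cx3cl1, Ccl5, Ccl6 and Ccl9 the ligand was called and the receptors Cxcr5, Cx3cr1 and Ccr1 were not. The log2 fold changes of these receptors were 0.45, -0.32 and 1.26. For Ccr1 every old library was nevertheless above every young one (edgeR, adjusted p = 0.0802). Whether the change of a ligand differed from that of its receptor was not tested. For Ccl8 and Ccl11 the receptors Ccr8 and Ccr3 had at most 5 reads over the 3 libraries of either age. Over the 17 receptor rows the summed level was 37.44, 19.86 and 22.19 CPM in old hearts and 18.42, 24.15 and 20.41 CPM in young hearts, which overlap. Ccr2 took the largest part of the receptor reads in each old library (28.64, 23.93 and 25.08%), and Cxcr4 in each young library (24.25, 33.43 and 30.28%). Per kilobase of exon Cxcr4 had the highest mean level of the 8 tested receptors at both ages, at 1.495 CPM per kb in old and 3.45 CPM per kb in young hearts, while Ccr2 was at rank 2 in old (1.04) and at rank 7 in young hearts (0.338).

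Chemokine genes outside the name rule gave 1 call in 7 tested of 10 listed, a share near the 15.1% of all genes tested that were called. Pf4, a ligand stored in platelets and also made by macrophages, was at 19.2, 15.6 and 15.7 CPM in old hearts, against 8.45, 9.63 and 10.8 CPM in young hearts. All old libraries were above all young ones, with a log2 fold change of 0.81 ± 0.17 (edgeR, adjusted p = 0.0148). The call of Pf4 ended without young 1, young 2 or young 3 (edgeR, adjusted p = 0.0806, 0.0745 and 0.0518). Ackr3, an atypical receptor that takes up Cxcl12 without G protein signalling, was at 80.3, 81.8 and 75.2 CPM in old hearts and 119, 89.3 and 100 CPM in young hearts. Its groups did not overlap, and the log2 fold change of -0.38 ± 0.14 was not called (edgeR, adjusted p = 0.0950). Ackr4, which takes up Ccl19, Ccl21 and Ccl25, was at 5.52, 1.42 and 0.742 CPM in old hearts and 5.09, 6.24 and 7.02 CPM in young hearts. Old 1 lay with the young libraries for Ackr4, and the log2 fold change was -1.23 ± 0.55 (edgeR, adjusted p = 0.159), against -2.49 without old 1 (adjusted p = 5.00e-04). Without old 1 the list gave 6 calls, 3 higher and 3 lower, and with no filter 4, of which 2 higher and 2 lower. Without 1 of the young libraries it gave 0, with 1 (young 1), 3 (young 2) and 3 (young 3) genes at an unadjusted p under 0.05 in edgeR.

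Of 25 genes that chemokine receptors use for signalling, 24 were tested, with 4 higher, 1 lower and a median log2 fold change of 0.11, beside 15.1% called over all genes tested. The 4 higher are proteins best known from leukocytes, apart from the arrestin Arrb2, which turns receptors off. Arrb2 was at 25.1, 34.0 and 24.5 CPM in old hearts, against 19.6, 15.5 and 14.7 CPM in young hearts (log2 fold change 0.75 ± 0.18; edgeR, adjusted p = 0.0246). Vav1 and Dock2, which activate Rac for cell movement, had log2 fold changes of 1.14 ± 0.28 and 0.87 ± 0.24 (edgeR, adjusted p = 0.0260 and 0.0397). Pik3r5, the regulatory subunit of the PI3-kinase used by G protein-coupled receptors, had one of 0.95 ± 0.28 (edgeR, adjusted p = 0.0484). Tpst1, an enzyme that adds sulfate to receptor tyrosines, was at 17.3, 20.2 and 16.4 CPM in old hearts and 24.5, 28.2 and 24.7 CPM in young hearts (log2 fold change -0.52 ± 0.14; edgeR, adjusted p = 0.0380). The number of calls moved with single libraries, as that over all genes did, with 8 calls without old 1, 4 without old 2, 1 without old 3 or young 2, and 0 without young 1 or young 3, where 8 and 6 genes had an unadjusted p under 0.05 in edgeR. The highest adjusted p with 1 library left out was 0.1215 for Arrb2 (without young 3), 0.114 for Vav1 (young 3), 0.144 for Dock2 (young 2), 0.169 for Pik3r5 (young 1) and 0.1655 for Tpst1 (young 2).

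Cytokines known to induce chemokines were mostly near 0. Of 13 listed, 4 were tested and Csf1, the growth factor of macrophages, was called, beside 15.1% of all genes tested. It was at 97.1, 48.4 and 93.3 CPM in old hearts, against 31.4, 27.7 and 31.5 CPM in young hearts. Every old library was above every young one, and old 2 was the lowest of the old. The log2 fold change of Csf1 was 1.40 ± 0.24 (edgeR, adjusted p = 0.00711). Il4, Ltb and Il1b were tested and not called, at log2 fold changes of 0.87, 1.53 and 0.41 (edgeR, adjusted p = 0.0744, 0.102 and 0.768). For Il4 and Ltb all old libraries were above all young ones, and Ltb reached the filter's minimum through the old libraries. Tnf, under the filter, was at 0.490, 0.426 and 0.520 CPM in old hearts and 0.0687, 0.136 and 0.129 CPM in young hearts, with 21 reads in old against 5 in young libraries. Ifng had 1 read in old and 1 in young libraries, Ifnb1 had 1 and 1, Il6 had 8 and 2, and Il17a and Il13 had none. Without old 1 the list gave 2 calls.

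Several lists of leukocyte genes held members that were called higher in old hearts. Of all genes tested 8.72% were called higher and 6.36% lower. Of 9 genes shared by most leukocytes, 7 were called higher (Cd52, Coro1a, Fcer1g, Itgb2, Laptm5, Ptprc and Tyrobp), none was called lower, and Cd53 and Spi1 were not called. Their summed level was 149.9 to 162.6 CPM in old hearts and 70.5 to 85.5 CPM in young hearts (exact permutation p = 0.1, the smallest that 3 against 3 allow). Of 12 macrophage genes, 3 were higher (C1qa, C1qb and C1qc), with a sum of 417 to 580.8 CPM in old hearts and 279 to 346.7 CPM in young hearts. These 3 genes, at means of 131.8, 85.9 and 66.8 CPM in old hearts and 56.6, 45.7 and 44.1 CPM in young hearts, make up most of the difference between the sums. The other 9 were not called, among them Csf1r (log2 fold change 0.10), Cd163 (0.13) and Adgre1 (-0.11). Of 8 monocyte genes 5 were tested. Ly6c2 and Plac8 were higher, at log2 fold changes of 3.39 ± 0.39 and 4.90 ± 0.90 (edgeR, adjusted p = 0.00179 and 0.00927), and Fn1, which fibroblasts also make, was lower. Ly6c2 and Plac8 reached the filter's minimum through the old libraries, so the filter favoured a higher level in old hearts. Their young libraries held 5, 4 and 5 reads (Ly6c2) and 0, 5 and 1 reads (Plac8). The monocyte sum, which Ace and Fn1 dominate, overlapped between the ages (97.6 to 150.4 CPM in old and 122.1 to 158.4 CPM in young hearts). Of 7 neutrophil genes, 3 were tested and all 3 were higher (Csf3r, S100a8 and S100a9), with a sum of 12.8 to 20.5 CPM in old and 3.05 to 4.74 CPM in young hearts, and Ly6g had no read. S100a8 and S100a9 also reached the minimum through the old libraries, with 4, 8 and 3 reads (S100a8) and 17, 6 and 20 reads (S100a9) in young libraries. The part of these leukocyte genes in the ligand and receptor results was not tested.

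Lymphocyte genes stood beside Cxcl13, Ccl5 and Cxcr6 in a mixed way. The share called higher was 8.72% over all genes tested. Of 10 T cell genes, 4 were tested and Lat and Trbc1 were higher, with a sum of 7.29 to 8.72 CPM in old and 3.19 to 3.99 CPM in young hearts. Cd8a and Cd4 were not called (log2 fold change 1.18 and -0.45). Lat and Trbc1 reached the filter's minimum through the old libraries, so the filter favoured a higher level in old hearts. Of 6 B cell genes, 5 were tested and 0 were called by edgeR (1, Igkc, at an unadjusted p under 0.05), and their sum overlapped between the ages (11.4 to 21.3 CPM in old and 14.2 to 16.9 CPM in young hearts). Of 6 plasma cell genes, 5 were tested and Ighg2c and Igha were higher, with a sum of 29.1 to 36.2 CPM in old and 12.6 to 13.9 CPM in young hearts. Ighg2c, at means of 18.1 CPM in old and 1.30 CPM in young hearts, makes up most of the difference between the sums. Jchain, Mzb1 and Sdc1 were not called (log2 fold change 1.09, 0.11 and -0.50), and for Sdc1 all old libraries were under all young ones. Of 7 natural killer cell genes 1 was tested and it was not called, with a sum of 2.20 to 4.96 CPM in old and 0.773 to 2.47 CPM in young hearts. Among 8 dendritic cell genes, 3 were tested and Itgax was higher, while the sums overlapped (41.1 to 99.1 CPM in old and 43.8 to 49.5 CPM in young hearts). Itgax, too, reached the minimum through the old libraries. Of 6 lymphatic endothelial genes, Ccl21a included, 5 were tested and 0 were called by edgeR (2, Mmrn1 and Reln, at an unadjusted p under 0.05), with a sum of 68.3 to 79.8 CPM in old and 61.4 to 67.4 CPM in young hearts, and 1 row of Pdpn had no read. The part of these cells in the chemokine results was not tested.

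Endothelial and fibroblast genes are given beside Cxcl12, Cxcr4 and Cx3cl1. The share called lower was 6.36% over all genes tested. Of 6 endothelial genes 3 were lower in old hearts (Cdh5, Pecam1 and Tie1), with a sum of 1068 to 1245 CPM in old and 1463 to 1573 CPM in young hearts. Egfl7, Esam and Kdr were not called (log2 fold change 0.37, -0.20 and -0.28). Of 6 fibroblast genes only Col1a1 was lower, and their sum overlapped between the ages (488.1 to 1147 CPM in old and 767 to 1037 CPM in young hearts), with old 1 the highest of the 6 libraries. Among 6 genes of mural cells Kcnj8 was lower, and their sum overlapped (642.2 to 1053 CPM in old and 926.5 to 1174 CPM in young hearts). Of the 6 heart muscle genes Actc1, Myh6 and Pln were lower in old hearts. Ryr2, Tnni3 and Tnnt2 were not called (log2 fold change -0.61, 0.15 and 0.20), and for Tnnt2 all old libraries were above all young ones. Whether these differences play a part in the levels of Cxcl12 and Cxcr4 was not tested. Of the 28 chemokine genes tested, 13 had old 1 as the highest old library, which is 46.4%, against 40.4% of all genes tested.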

How the data were processed

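The authors deposited raw counts of reads per gene and a table of FPKM values for 13170 genes. Per the submitters' processing notes, HISAT2, featureCounts and Subread were used with GRCm38.p6. Their versions and settings (annotation, strand, reads that map to several places) were not given in the sources used here. Libraries held 13673856 to 15583364 counts, of which 0.2954 to 0.3685% fell on 571 models without a name, which were left out. The counts were analysed with edgeR 4.0.16 in R 4.3.3 (filterByExpr, TMM, quasi-likelihood F test, Benjamini-Hochberg adjustment at 0.05), and tested on simulated data. The SE was obtained as the size of the log2 fold change over the root of edgeR's F. Alternatives were RLE factors, other filters, DESeq2 1.42.0, limma-voom and limma-trend (limma 3.58.1) on log2(FPKM + 1 or 0.1), a block for the replicate number, and leaving out each library. Gene positions and exon lengths are those of GENCODE M21, in which all 61 genes were found by identifier. Members past the filter are named with their values, and of the pathway lists the genes called, with a few others for context. The gene family, its name rule and the lists were chosen with earlier results of these data known. Intervals on read ratios cover counting error only. Results of 1 gene are not reported or drawn here, though it stays in the counts and sums.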

Additional observations from a re-analysis of the deposited data

How the results depend on the processing

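The number of ligand calls, 14, was 14 with RLE factors, DESeq2 and a filter of 1 CPM, 15 with no filter, 13 with limma-voom and 11 with limma-trend on either FPKM scale. Leaving out single libraries gave 6 to 16 ligand calls, 0 to 4 receptor calls (3 with every library), 0 to 6 calls among other chemokine genes (1 with every library), 0 to 8 among signalling genes (5), 1 to 2 among cytokines (1) and 539 to 5570 over all genes (2174). Receptor calls were 1 (Cxcr4, lower) and 0 with limma-trend on log2(FPKM + 1) and log2(FPKM + 0.1), against 2 higher and 1 lower. Signalling calls were 3 and 3 on these scales and cytokine calls 2 and 2, and fewer genes are in that table. With no filter, calls among other chemokine genes were 4 (Pf4, with Ackr4, Ccrl2 and Ppbp added); the cause was not tested. Of the 17 chemokine calls, 13 held in each alternative that kept all libraries and tested the gene, and 6 held in every alternative that tested them (Ccl6, Ccl7, Ccl8, Ccl9, Cxcl13 and Cx3cl1). Among these 6, Ccl7, Ccl8 and Cxcl13 reached the filter's minimum through the old libraries, so the filter favoured a higher level in old hearts. On log2(FPKM + 1), which understates low genes, the log2 fold changes of Ccl2, Ccl5, Ccl7, Ccl11, Ccl12, Ccr2 and Cxcr6 were 1.21, 0.93, 2.14, 1.32, 2.51, 0.58 and 0.56. No alternative reversed a called gene. The replicate numbers did not pair the libraries, since deviations from the group means correlated at -0.0867, -0.0697 and 0.0332 for the same number. With the replicate number as a block, ligand calls were 14, receptor calls 3, signalling calls 2 (Dock2, Pik3r5 and Tpst1 were lost) and calls over all genes 1774. Depth limits the 33 rows under the filter, which hold few reads, and the 3 libraries per age limit the rest.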
